A study of Mus musculus with 15 samples.

Results

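A set of 10 genes of fat cells were followed in kidney RNA of male mice: Adipoq, Retn, Plin1, Cfd, Cidec, Lep, Adrb3, Adig and Fabp4, which are used in white fat, and Ucp1, which marks brown fat. They were taken as 10 named genes, found on the array through the RefSeq accession of each probe, and all 10 were among the 16055 genes that passed the filter on dim probes, out of 20659 gene symbols on the array. The filter asked that a probe be well above background on at least 3 arrays. The mice were of the strain that the labels write as C57/BJ, and each group had been fed for 20 weeks after an operation at 6 weeks of age. The 4 groups were high-fat mice with 1 kidney (left kidney removed, called uninephrectomy; 4 arrays), high-fat sham mice (kidney handled and left in place; 3 arrays), low-fat mice with 1 kidney (4 arrays) and low-fat sham mice (4 arrays). The labels call the control diet both chow and low fat, and state 6 mice per group, from which these 15 RNA samples, 1 mouse and 1 single-colour Agilent array each, were measured.

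Levels are given on a normalised log2 scale: 0 is the 75th percentile of all probes of that array, and a step of 1 is a 2-fold difference. They compare 1 gene between arrays and do not rank genes against each other. On each array 60.5% to 73.4% of spots exceeded background clearly (the scanner software's well-above-background mark). Scan day 1 held the high-fat arrays only, on slides 1 and 2, and scan day 2 the low-fat arrays only, with mice with 1 kidney on slide 4 and sham mice on slide 3. Diet and scan day therefore cannot be told apart, and the same is true of operation and slide on the low-fat diet. The 10 kidney markers, among them Umod of the thick ascending limb and Nphs1 of podocytes, averaged 4.11 to 4.57 per array, and 0 of them passed the test in any comparison, so every array carried the labelled tissue.

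White adipocytes store fat in 1 large droplet coated by perilipin and CIDE proteins, and they secrete hormones such as adiponectin, leptin, resistin and adipsin. Brown adipocytes hold many small droplets and burn fat in mitochondria uncoupled by UCP1. In the mouse the kidney is bordered by a perirenal fat pad and its hilum holds fat around the vessels, and this fat can contain both kinds of cell. In whole-tissue RNA, fewer cells of a type and less RNA per cell cannot be told apart.

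The secreted adipokines came first. Adipoq (adiponectin, an adipocyte hormone that raises insulin sensitivity) was well above background on all 15 arrays. Its level was -2.58, 0.39, -0.44 and -0.36 in high-fat mice with 1 kidney, -3.89, -2.72 and -0.23 in high-fat sham mice, -0.19, -0.23, -3.35 and -0.69 in low-fat mice with 1 kidney, and -1.09, -0.39, -0.08 and 1.17 in low-fat sham mice. Every group overlapped every other. A group of 4 arrays stood low, namely high-fat sham replicates 1 and 2, low-fat 1-kidney replicate 3 and high-fat 1-kidney replicate 1, and the lowest of the other 11 was at -1.09. From the lowest to the highest array the signal differed 33.4-fold, a wider span than that of 99.7% of all genes tested. For these spans, and for every gene alike, a signal not well above background was replaced by the lowest signal well above background on that array (or by its own, where higher), so that a span reaching such an array is a lower bound.

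The order of the group means for Adipoq was low-fat sham, high-fat with 1 kidney, low-fat with 1 kidney and high-fat sham. These means were -0.75 ± 1.28 (SD, n = 4) in high-fat mice with 1 kidney, -2.28 ± 1.87 (SD, n = 3) in high-fat sham mice, -1.11 ± 1.51 (SD, n = 4) in low-fat mice with 1 kidney and -0.10 ± 0.94 (SD, n = 4) in low-fat sham mice. No neighbours in that order differed beyond their spread.

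The 250 bases before the Adipoq start (chr16:23146286-23146535, GRCm38.p6, plus strand, RefSeq) are shown beside those before Lep (chr6:29059971-29060220, plus strand) and Ucp1 (chr8:83290098-83290347, plus strand), since these 3 genes followed 3 different patterns over the arrays. Capitals mark the C/EBP motif TTGCNNAA, and other bases are in lower case.
Adipoq: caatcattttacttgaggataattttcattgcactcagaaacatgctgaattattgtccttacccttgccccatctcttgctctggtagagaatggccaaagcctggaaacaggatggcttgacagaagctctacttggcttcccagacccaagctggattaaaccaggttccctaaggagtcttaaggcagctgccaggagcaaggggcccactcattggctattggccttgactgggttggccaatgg
Lep: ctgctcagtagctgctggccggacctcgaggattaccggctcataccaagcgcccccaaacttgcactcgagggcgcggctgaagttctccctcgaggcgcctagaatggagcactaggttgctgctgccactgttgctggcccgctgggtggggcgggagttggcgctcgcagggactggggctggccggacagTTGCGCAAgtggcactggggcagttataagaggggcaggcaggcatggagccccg
Ucp1: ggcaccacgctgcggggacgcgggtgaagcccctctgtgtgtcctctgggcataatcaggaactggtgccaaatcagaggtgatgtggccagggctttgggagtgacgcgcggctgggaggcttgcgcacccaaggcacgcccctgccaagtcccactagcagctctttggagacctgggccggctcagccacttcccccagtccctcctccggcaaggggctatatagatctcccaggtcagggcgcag
Promoter windows were found for 8 of the 10 genes, as 9 windows. Adrb3 and Fabp4 had none in the table. C/EBP proteins are transcription factors of adipocyte differentiation, and their motif, searched on both strands, was in 3 of the 9 windows and in 9.56% of all 32851 mouse windows of 250 bases. The matches were TTGCCTAA and TTGCCCAA before Plin1 (187 and 58 bases before its start), TTGCTCAA in one of the 2 Cidec windows (198 bases before) and TTGCGCAA before Lep (55 bases before). The PPAR-RXR direct repeat (2 copies of AGGNCA with 1 base between them), held by 0.338% of all windows, was in 0 of the 9, and the TATA box letters TATAAA, held by 12.4%, were also in 0 of the 9.

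Retn (resistin, an adipocyte hormone that in mice opposes insulin) followed Adipoq closely. It stood at -2.43, 0.19, -0.13 and -0.15 in high-fat mice with 1 kidney, -3.64, -2.99 and -0.23 in high-fat sham mice, -0.28, -0.21, -3.12 and -0.42 in low-fat mice with 1 kidney, and -1.15, -0.21, -0.30 and 1.23 in low-fat sham mice. The same 4 arrays were lowest. Retn minus Adipoq on the same array lay between -0.27 and 0.31 on all 15 arrays, although both genes spanned over 29-fold. A second Retn probe gave the same picture (r = 0.99 with the first over 15 arrays).

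Cfd (adipsin, also called complement factor D, a protease of the alternative complement pathway secreted by adipocytes) was at -1.18, -0.23, 0.20 and -0.05 in high-fat mice with 1 kidney, -1.81, -2.19 and 1.69 in high-fat sham mice, 1.66, 1.64, -0.40 and 2.67 in low-fat mice with 1 kidney, and 1.09, 2.51, 2.02 and 2.88 in low-fat sham mice. All high-fat arrays except sham replicate 3 were at or below 0.20, and all low-fat arrays except 1-kidney replicate 3 were at or above 1.09.

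Lep (leptin, the hormone that signals fat stores to the brain) was well above background, in at least 1 of its spots, on 7 of the 15 arrays. It was at -7.04, -2.98, -4.64 and -4.18 in high-fat mice with 1 kidney, -7.86, -6.87 and -6.71 in high-fat sham mice, -7.16, -6.49, -7.94 and -7.60 in low-fat mice with 1 kidney, and -7.22, -7.87, -7.14 and -4.65 in low-fat sham mice. High levels were seen on 4 arrays: high-fat 1-kidney replicates 2, 3 and 4 and low-fat sham replicate 4. The array carries the Lep probe in 10 spots, and on those 4 arrays all 10 were well above background, against 0 to 7 of 10 on the others. High-fat 1-kidney replicate 1 had 1 such spot, but that spot bore an outlier mark and was left out of the level. Its other spots all lay below the lowest signal well above background on that array (-6.48). Its level was within the range of the dim arrays, so its Lep was not measured reliably. Among the levels of the dim arrays there is no order. No low-fat array with 1 kidney had any.

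The lipid droplet proteins and the remaining white-fat genes completed the set. Plin1 (perilipin 1, which coats the droplet and gates lipolysis) ran from -4.21 to -2.10 in high-fat mice with 1 kidney, -6.47 to -3.28 in high-fat sham mice, -5.32 to -2.47 in low-fat mice with 1 kidney and -3.74 to -1.78 in low-fat sham mice. Cidec (which fuses droplets into larger ones) ran from -2.42 to 0.40, -3.64 to -0.69, -2.74 to 0.50 and -0.90 to 1.71 in the same 4 groups. Adrb3 (the beta-3 adrenergic receptor, through which noradrenaline triggers lipolysis) ran from -4.44 to -2.33, -6.25 to -2.36, -5.43 to -2.38 and -3.18 to -1.50. For all 3 the lowest arrays were the 4 that were lowest in Adipoq, and the lowest of all for Plin1 and Adrb3, high-fat sham replicate 1, was not well above background. Plin1 spanned at least 19.6-fold, Cidec 40.7-fold and Adrb3 at least 23.7-fold, wider than the spans of 99.5%, 99.7% and 99.6% of all genes tested. The second Cidec probe followed the first (r = 0.92 over 15 arrays). That of Adrb3 did so less closely (r = 0.56). It ran only from -6.43 to -4.49 over all arrays and was well above background on 12. The wide span of Adrb3 therefore holds for the chosen probe only.

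Fabp4 (the adipocyte fatty acid binding protein, also made by macrophages and capillary endothelium) and Adig (adipogenin, a small protein of the adipocyte) varied less. Fabp4 spanned 2.43-fold over all arrays and Adig 3.43-fold, wider than 65.0% and 85.3% of all genes tested. Fabp4 averaged 3.45 ± 0.40 (SD, n = 4) in high-fat mice with 1 kidney, 3.17 ± 0.49 (SD, n = 3) in high-fat sham mice, 3.29 ± 0.27 (SD, n = 4) in low-fat mice with 1 kidney and 3.68 ± 0.25 (SD, n = 4) in low-fat sham mice. Its 4 lowest arrays were again those lowest in Adipoq, the least low of them at 3.17 against 3.24 on the next. Adig was at -2.92, -2.17, -2.51 and -2.58 in high-fat mice with 1 kidney, -2.50, -3.23 and -2.71 in high-fat sham mice, -1.73, -2.12, -2.31 and -1.68 in low-fat mice with 1 kidney, and -2.11, -1.73, -2.15 and -1.45 in low-fat sham mice. Its high-fat sham arrays lay below all low-fat sham arrays, and only 2 of its 4 lowest arrays were among the 4 lowest in Adipoq. The second Adig probe did not track the first (r = 0.06 over 15 arrays).

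**Figure D1:**
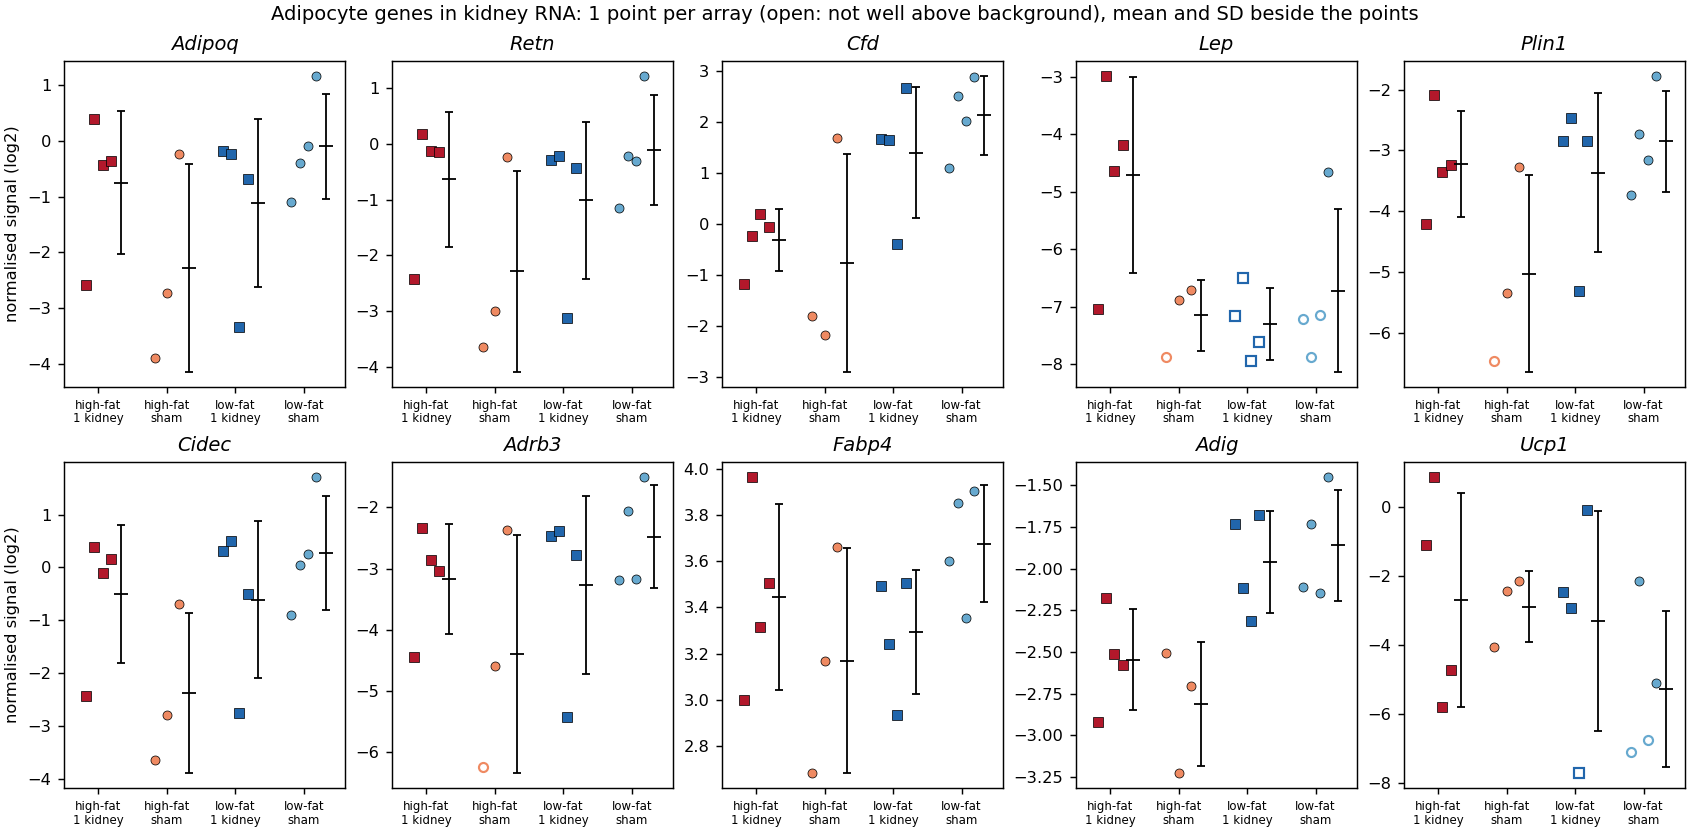
Normalised log2 signal of the 10 genes (vertical axis, own scale per panel) in the 4 groups, 1 point per array, with the group mean and SD beside the points and open symbols where the gene was not well above background. Adipoq, Retn, Plin1, Cidec and Adrb3 show the same low arrays in 3 groups, Lep is high on 3 of the 4 high-fat 1-kidney arrays, and Ucp1 spreads over at least 105-fold. The lowest high-fat 1-kidney array for Lep is filled only through a spot left out of its level.

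Ucp1 (the uncoupling protein of brown and beige adipocytes) had its own order of arrays. It was at -1.11, 0.88, -5.78 and -4.71 in high-fat mice with 1 kidney, -4.06, -2.44 and -2.15 in high-fat sham mice, -2.47, -2.93, -7.72 and -0.09 in low-fat mice with 1 kidney, and -7.09, -2.13, -6.74 and -5.09 in low-fat sham mice. It was well above background on 12 arrays, all except low-fat 1-kidney replicate 3 and low-fat sham replicates 1 and 3. Its span was at least 105-fold, wider than that of 99.9% of genes tested. The high and low arrays were found on both diets and after both operations. Low-fat sham replicate 4, the highest array in Adipoq at 1.17, had Ucp1 at -5.09, while high-fat 1-kidney replicate 1, among the 4 lowest in Adipoq at -2.58, had Ucp1 at -1.11. Only 1 of the 4 arrays lowest in Adipoq was among the 4 lowest in Ucp1, namely low-fat 1-kidney replicate 3.

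Of 13 other brown-fat genes measured, 3 varied with Ucp1 with an r above 0.7, namely Cidea, Cox8b and Dio2, and the other 10 had an r between -0.20 (Zic1) and 0.49 (Kcnk3). Cidea (a droplet protein of brown and beige fat in mice) had a Pearson r of 0.90 with Ucp1 (Spearman rho 0.88) and of 0.41 with Adipoq, over 15 arrays that share their labelling, slides and scaling. Cox8b (a respiratory chain subunit of brown fat and muscle) had an r of 0.90 with Ucp1 (rho 0.87) and of 0.45 with Adipoq. Dio2 (the deiodinase that activates thyroid hormone in brown fat) had an r of 0.71 with Ucp1, but was well above background on 6 arrays only. Without the 2 arrays farthest from the Ucp1 median, r with Ucp1 was 0.88 for Cidea and 0.84 for Cox8b. Ucp1 itself had an r of 0.15 (rho 0.13) with Adipoq. Cidea and Cox8b were the 2 genes most like Ucp1 of all with a value on every array, also after each group mean was subtracted (r = 0.98 and 0.96). The next by r over the 15 arrays were Trim29 (0.86), Wdr93, Krt5 (a keratin of basal epithelial cells), Gsdmc3, Gsdmc4, Upk2 (a uroplakin of the urothelium), Syt17 and Capn13, down to an r of 0.76. Trim29 was well above background on 5 arrays only, Gsdmc4 and Capn13 on 7 and Upk2 on 10. This ranking for Ucp1 was added after its values were seen. Among the 10 that did not follow Ucp1, Ppargc1a, a coactivator of mitochondrial biogenesis that the kidney also expresses, had an r of 0.07 with Ucp1, and Prdm16, a brown-fat transcription factor, one of -0.14.

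**Figure D2:**
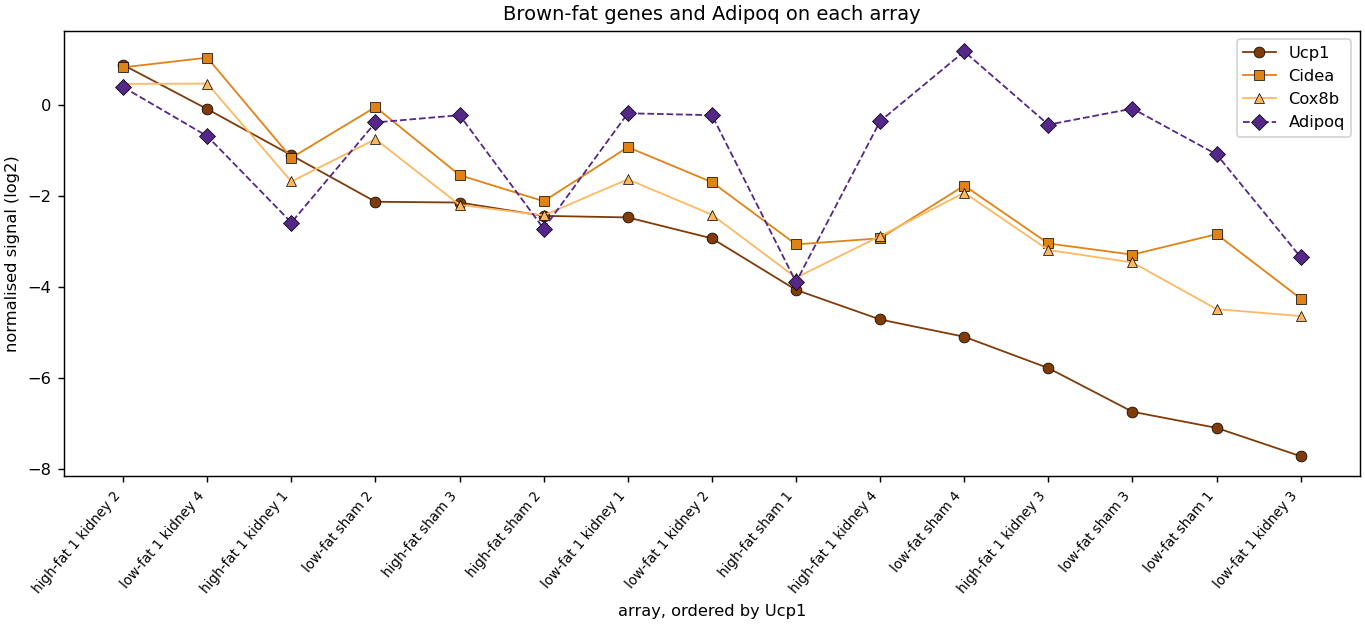
Normalised log2 signal of Ucp1, Cidea, Cox8b and Adipoq (vertical axis) on each array, ordered by Ucp1 from high to low. Cidea and Cox8b descend broadly with Ucp1, whereas Adipoq does not: it is at 1.17 where Ucp1 is at -5.09 and at -2.58 where Ucp1 is at -1.11.

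The white-fat genes varied together from array to array. With Adipoq, Pearson r over the 15 arrays was 0.99 for Retn (rho 0.80), 0.98 for Cidec (rho 0.91), 0.97 for Adrb3 (rho 0.81), 0.96 for Plin1 (rho 0.84), 0.86 for Fabp4 (rho 0.71), 0.76 for Cfd (rho 0.64), 0.58 for Adig (rho 0.43) and 0.56 for Lep (rho 0.57). Since 4 arrays stand apart at the low end, r was also taken over the other 11, where it was 0.95 for Retn, 0.89 for Cidec, 0.84 for Plin1, 0.74 for Adrb3, 0.54 for Lep, 0.49 for Fabp4, 0.33 for Adig and 0.17 for Cfd. The close relation of Retn, Cidec and Plin1 with Adipoq thus did not rest on the 4 low arrays. For Cfd this cannot be told from the r of 0.17. The 11 arrays mix both diets, and in mice with 1 kidney Cfd lay apart by diet at similar Adipoq. The values of Adrb3 are those of its chosen probe, and its second probe had an r of 0.56 with Adipoq over the 15 arrays. The values of Lep include 8 arrays on which it was not well above background, and high-fat 1-kidney replicate 1, where it was so only in a spot left out of the level. Within the 7 high-fat arrays the r of Cfd was 0.81, and within the 8 low-fat arrays 0.88. For Lep these were 0.84 and 0.71. Among the low-fat arrays Lep was well above background only on sham replicate 4, also the highest in Adipoq. The 0.71 therefore rests on that array. The 4 arrays lowest in Adipoq also lay below all of the other 11 in Retn, Plin1, Cfd, Cidec, Adrb3 and Fabp4. In Adig they did not, and for Lep the dim arrays have no order.

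**Figure D3:**
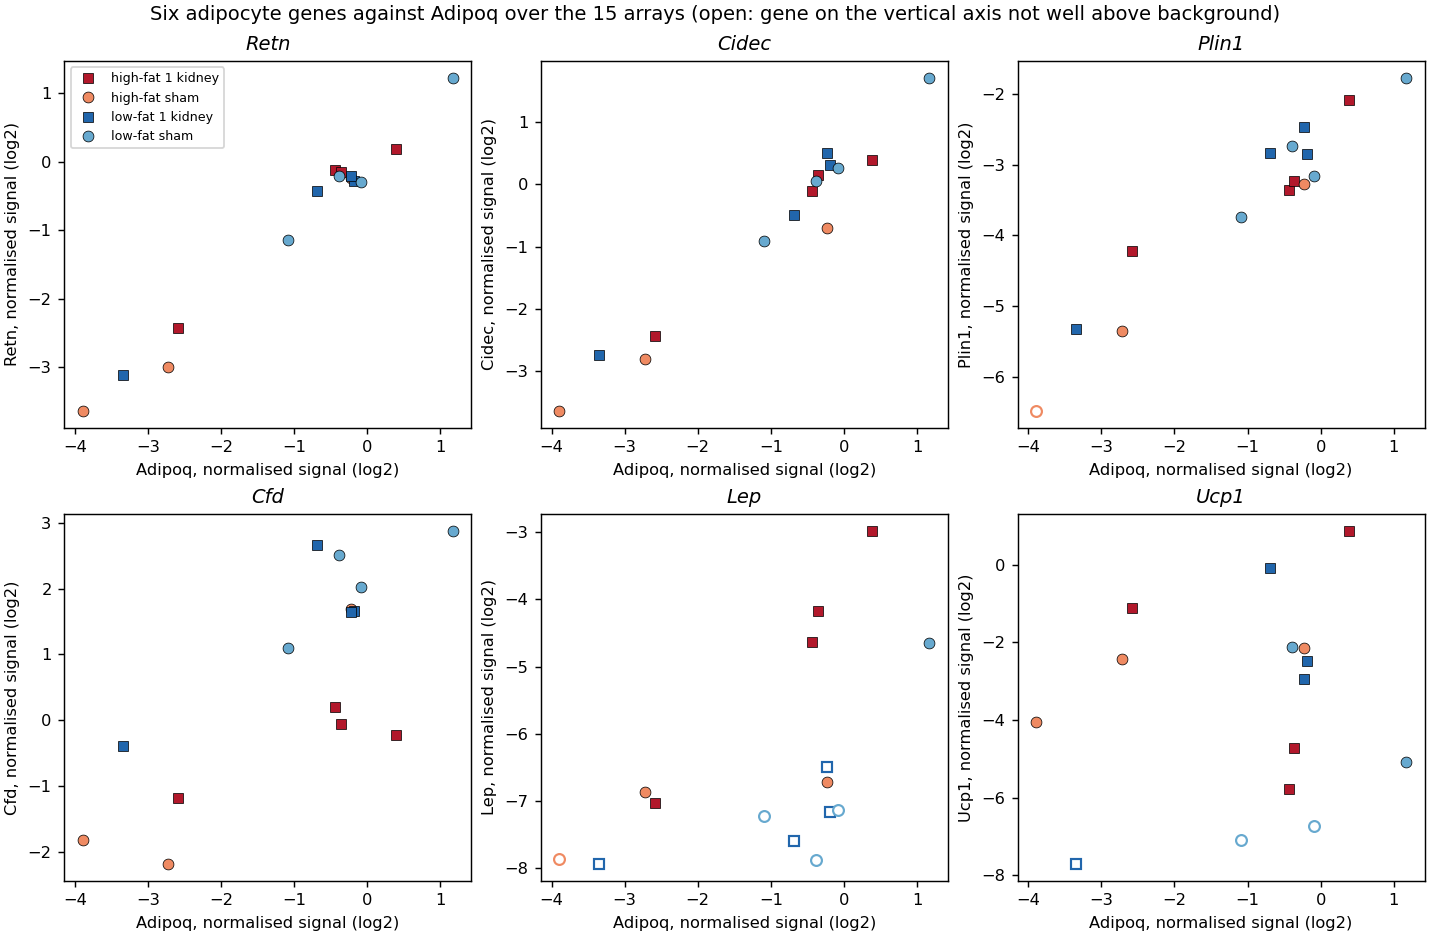
Normalised log2 signal of Retn, Cidec, Plin1, Cfd, Lep and Ucp1 (vertical axes) against that of Adipoq (horizontal axes), 1 point per array, squares for mice with 1 kidney and circles for sham mice, red for the high-fat and blue for the low-fat diet. Retn and Cidec fall on 1 line for all groups (r = 0.99 and 0.98), Cfd lies apart by diet in mice with 1 kidney (squares) at similar Adipoq, Lep is open, not well above background, on 8 arrays, and Ucp1 shows no line (r = 0.15). For Lep, high-fat 1-kidney replicate 1 is filled only through a spot left out of the level.

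Of genes outside the set, those most like Adipoq over the 15 arrays were Mrap (an accessory protein of melanocortin receptors, r = 0.92), Myl1, Plin4 (a perilipin of white adipocytes, 0.89), Serpina3c, Aoc3 (a vascular and adipocyte amine oxidase), Arxes2, Rbp7, Bche, Scara5 and Cd1d1 (0.75). After each group mean was subtracted they were Plin4 (0.95), Mrap (0.93), Arxes2, Bhmt2, Cav2, Serpina3c, Myl1, Ccdc47, Slc1a3 and Sypl (0.85). Mrap, Plin4, Arxes2, Serpina3c and Myl1 were in both. Myl1 was well above background on 6 arrays only, Serpina3c on 8, and Bche and Slc1a3 on 11, so their r rests in part on dim signals.

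Between diets in sham mice 2 of the 10 genes passed the test, Cfd and Adig, both lower on the high-fat diet. Over all genes 13.9% passed in this comparison, 7.41% in the lower direction, so that the count is near the share of all genes. The means of the 8 white-fat genes other than Lep were below those on the low-fat diet, with a median log2 difference of -2.18 and a range of -2.90 to -0.51, beside a median of -0.02 over all 16055 genes. Cfd was 7.45-fold lower, at -0.77 ± 2.14 (SD, n = 3) in high-fat sham mice against 2.13 ± 0.77 (SD, n = 4) in low-fat sham mice (log2 difference -2.90, SE 0.84, limma adjusted p = 0.0363). Adig was 1.93-fold lower, at -2.81 ± 0.37 (SD, n = 3) in high-fat sham mice and -1.86 ± 0.33 (SD, n = 4) in low-fat sham mice (-0.95, SE 0.24, limma adjusted p = 0.0189). It was the only one of the 10 genes whose groups did not overlap here, where 15.2% of all genes lay wholly lower on the high-fat diet. Adipoq (-2.18, SE 0.95, limma adjusted p = 0.137), Retn (-2.18, 0.123), Plin1 (-2.18, 0.0789), Cidec (-2.65, 0.0670), Adrb3 (-1.92, 0.158) and Fabp4 (-0.51, 0.200) did not pass, where the second value is the limma adjusted p. Nor did Lep (adjusted p = 0.775), whose signal cleared background on 2 of the 3 high-fat arrays and 1 of the 4 low-fat arrays in this comparison.

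These counts turned on single arrays. High-fat sham replicate 3 had levels like those of low-fat arrays in most white-fat genes. Without it 7 of the 10 genes passed, namely Adipoq, Retn, Plin1, Cfd, Cidec, Adrb3 and Adig, and the log2 difference of Adipoq was -3.21 (limma adjusted p = 0.0373). Each array was left out in turn. In those fits 0 to 7 of the 10 genes passed, beside 1210 to 2719 of all 16055 genes. The 7 is thus the highest of these counts, from an array singled out for its levels. Without high-fat sham replicate 2, or without low-fat sham replicate 4, 0 passed. With both Adig probes averaged its difference was -0.42 (limma adjusted p = 0.387), and the second probe alone differed by 0.10, the other way. With normexp background correction 0 passed. With slide as a random block 0 passed (Cfd adjusted p = 0.315, Adig 0.275), and 14 of all genes did. Ucp1 differed the other way from the white-fat genes, with a log2 difference of 2.38 (SE 1.79, limma adjusted p = 0.403), at -2.88 ± 1.03 (SD, n = 3) in high-fat sham mice against -5.26 ± 2.26 (SD, n = 4) in low-fat sham mice, where 2 of the 4 arrays were well above background.

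Between diets in mice with 1 kidney 1 of the 10 genes passed, Lep, which was higher on the high-fat diet, where 14.2% of all genes passed, 7.67% in the higher direction. The count is near these shares. Of the other 8 white-fat genes 6 had a higher and 2 a lower mean on the high-fat diet, with a median log2 difference of 0.13 and a range from -1.71 (Cfd) to 0.38 (Retn), and the median over all genes was -0.01. With Lep at the fold given next the median was 0.15. Lep averaged -4.71 ± 1.70 (SD, n = 4) in high-fat mice with 1 kidney and -7.30 ± 0.62 (SD, n = 4) in low-fat mice with 1 kidney (limma adjusted p = 0.0392). No array of the low-fat group was well above background. Each low-fat array was therefore set at its lowest signal well above background, or at the probe's own signal where higher. Against these the high-fat mean was 1.94-fold higher. That is not a strict lower bound, since the high-fat mean includes replicate 1, at -7.04. The only 1 of its 10 Lep spots above background was left out as an outlier, and its level lay within those of the dim low-fat arrays.

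The call of Lep was near the threshold. It was lost when high-fat 1-kidney replicate 2 was left out (limma adjusted p = 0.122), as it was without any of 6 other single arrays. It was lost too with another background correction (normexp with an offset of 50), which gave an adjusted p of 0.683. Cfd was lower by -1.71 (SE 0.78, limma adjusted p = 0.160) and Adig by -0.58 (SE 0.22, limma adjusted p = 0.0909), neither past the threshold. The second Adig probe differed the other way, by 0.60. With both Adig probes averaged the difference was 0.01 (limma adjusted p = 0.988), so the lower Adig holds for the chosen probe only. Adipoq (0.36), Retn (0.38), Plin1 (0.15), Cidec (0.11), Adrb3 (0.10) and Fabp4 (0.15) had log2 differences smaller than their SE, which was at most 0.88. Ucp1 differed by 0.62 (SE 1.66). Of the 10 genes 0 had groups that did not overlap, where 22.5% of all genes did so.

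**Figure D4:**
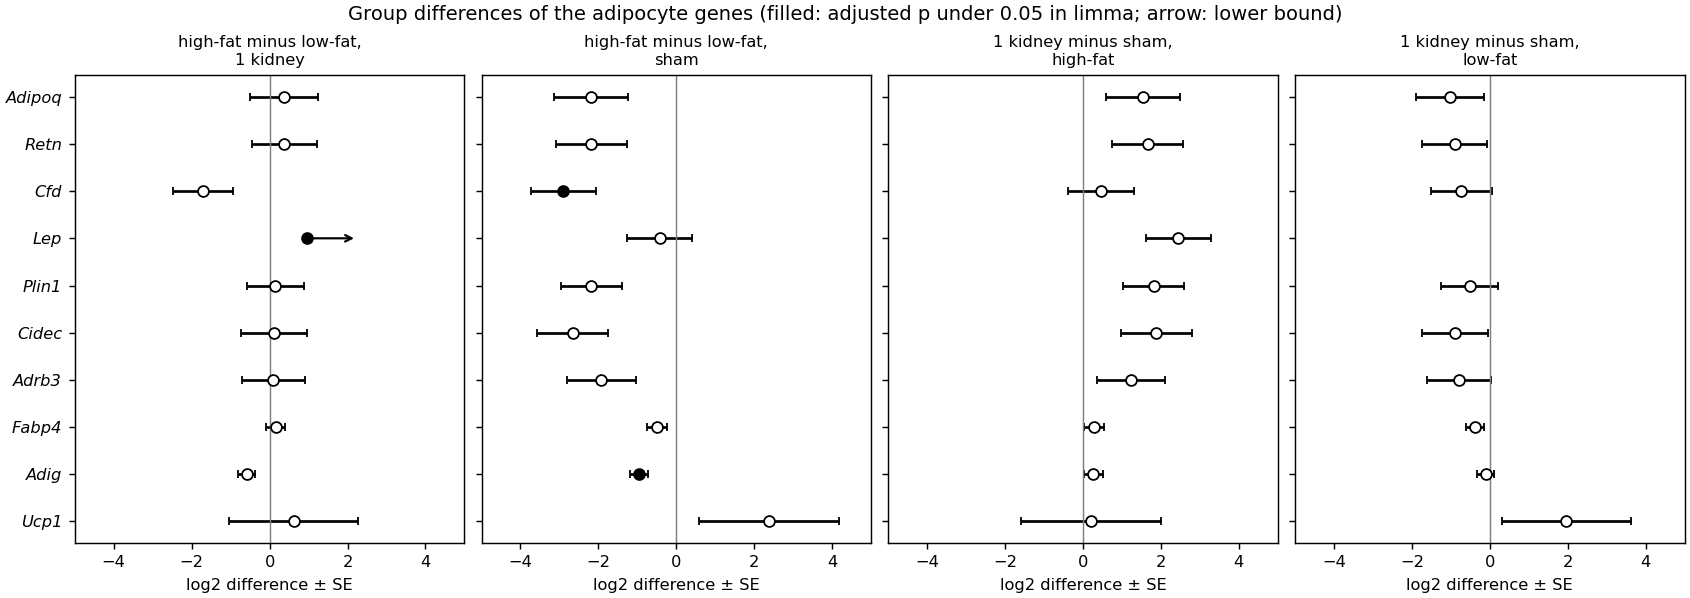
Log2 difference with its SE (horizontal axis) of the 10 genes in 4 comparisons, filled points passing limma at an adjusted p under 0.05, and Lep between diets in mice with 1 kidney drawn as a lower bound with an arrow. That bound is not strict, since the high-fat mean includes replicate 1, where Lep was not measured reliably. No Lep point is drawn between operations on the low-fat diet, where 1 of the 8 arrays was well above background. Only Lep (1 kidney, higher) and Cfd and Adig (sham, lower) are filled. The 8 white-fat genes other than Lep are all below 0 between diets in sham mice and all above 0 between operations on the high-fat diet.

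Set against Adipoq on the same array, Cfd was the gene of the set that separated the diets in mice with 1 kidney. It was singled out after its values were seen, and the values are a description. Cfd minus Adipoq was 1.40, -0.62, 0.64 and 0.31 in high-fat mice with 1 kidney, against 1.84, 1.87, 2.95 and 3.36 in low-fat mice with 1 kidney. The groups did not overlap, and the means differed by -2.07. Over 16011 genes with a value on every array, 0.0375% lay wholly lower on the high-fat diet after the same subtraction. That share is low by construction, since the subtraction adds the spread of Adipoq to every gene that does not share it, and it does not show how rare the pattern of Cfd is. In sham mice Cfd minus Adipoq was 2.08, 0.53 and 1.91 on the high-fat diet, against 2.18, 2.90, 2.10 and 1.71 on the low-fat diet, which overlapped (difference -0.71).

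Adig minus Adipoq, with the chosen Adig probe, differed by -0.95 between the diets in mice with 1 kidney, with groups that overlapped. For Retn, Cidec, Plin1, Adrb3 and Fabp4 the difference between diets was 0.01, -0.25, -0.22, -0.27 and -0.21, again with overlap. Lep minus Adipoq was -3.37, -4.20 and -3.82 on high-fat 1-kidney replicates 2, 3 and 4. On the low-fat 1-kidney arrays, where Lep was not well above background, it was at most -5.13, -5.71, -2.50 and -4.88. The limit of the third low-fat array lies above the high-fat values, so whether these groups overlap was not measured.

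**Figure D5:**
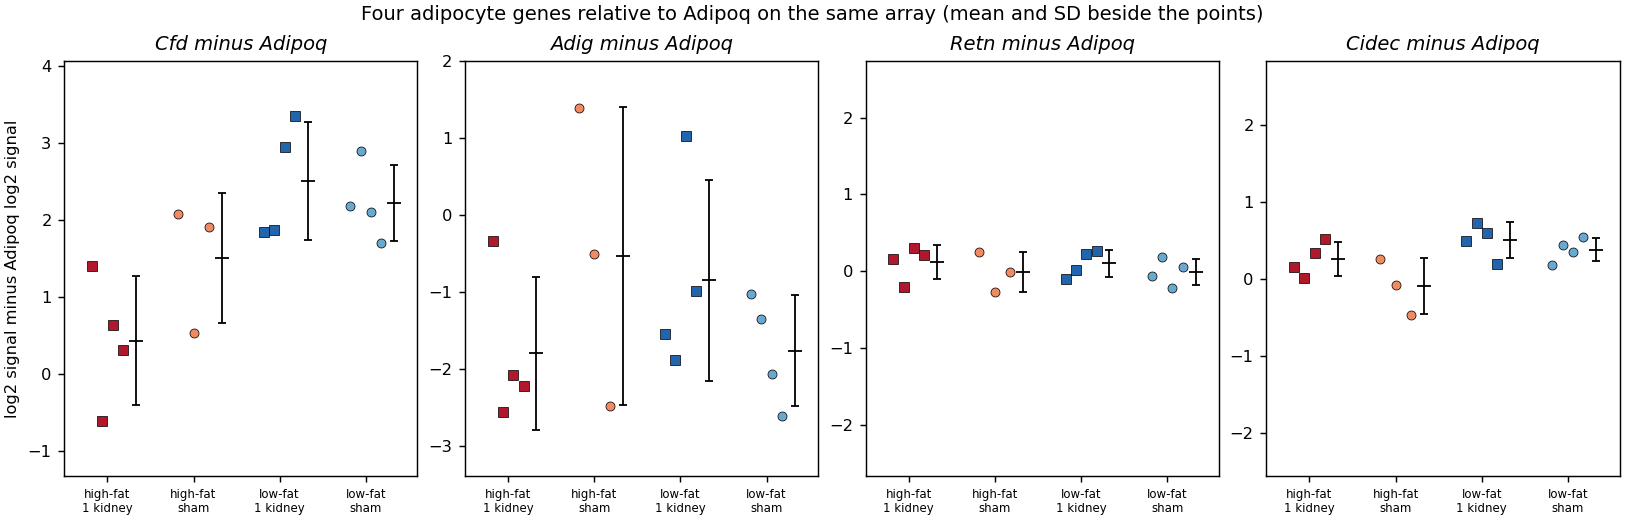
Log2 signal of Cfd, Adig, Retn and Cidec minus that of Adipoq on the same array (vertical axes, equal length of scale), 1 point per array by group with mean and SD. In mice with 1 kidney the high-fat arrays are all below the low-fat ones for Cfd and overlap them for Adig, while Retn stays between -0.27 and 0.31 on every array.

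Removal of 1 kidney on the high-fat diet showed no gene of the set past the threshold. The means of the 8 white-fat genes other than Lep were above those in sham mice (median log2 difference 1.38, range 0.27 to 1.88, all genes 0.02). Of all genes 0 passed (0%), while 747 had an unadjusted limma p under 0.05, Lep and Plin1 among them. Lep differed by 2.44 (SE 0.84, limma adjusted p = 0.999), Cidec by 1.88, Plin1 by 1.81, Retn by 1.66 and Adipoq by 1.53 (SE 0.95). Lep was well above background on 4 of 4 arrays, 1 of them only in a spot left out as an outlier, against 2 of 3. Both groups lay on slides 1 and 2, so the difference can be read within a slide. It was 2.80 for Adipoq on slide 1 (2 arrays against 1) and 1.08 on slide 2 (2 against 2), 2.62 and 1.77 for Cidec, and 1.11 and 0.32 for Cfd. For Lep it was 2.38 on slide 2. On slide 1 it was 1.06 for Lep with the sham array set at its lowest signal well above background. That is not a strict bound, since high-fat 1-kidney replicate 1 lies on slide 1. The median over the 9 genes was 2.52 on slide 1, with Lep at 1.06 and Plin1 and Adrb3 at their bounds, and 1.02 on slide 2. Adig (-0.04 and 0.42) and Fabp4 (0.80 and -0.00) did not keep 1 direction. Nor did Ucp1, at 3.95 on slide 1 and -2.95 on slide 2, with a pooled difference of 0.20 (SE 1.79).

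On the low-fat diet the 8 white-fat genes other than Lep had lower means in mice with 1 kidney than in sham mice (median -0.76, range -1.01 to -0.10, all genes 0.01), with none of the 10 genes past the threshold and 0 below an unadjusted limma p of 0.05. Of all genes 1 passed (0.00623%). The median over the 9 genes, with the fitted value of Lep, was -0.73, and -0.17 without low-fat 1-kidney replicate 3, the array of its group that was low in most white-fat genes. Ucp1 differed by 1.96 (SE 1.66), at -3.30 ± 3.19 (SD, n = 4) in mice with 1 kidney and -5.26 ± 2.26 (SD, n = 4) in sham mice. The effect of surgery on the high-fat diet minus that on the low-fat diet was above 0 for the same 8 genes (median 2.17), from 0.37 (Adig) to 2.77 (Cidec, SE 1.24, limma adjusted p = 0.9995), and -1.76 for Ucp1. No size is given for Lep, which was not well above background on any low-fat 1-kidney array. Lep, Cidec and Plin1 had an unadjusted p under 0.05 in that interaction, but 0 genes of all passed it after adjustment (0%), with 219 below an unadjusted limma p of 0.05. All these comparisons share groups with each other: the high-fat sham arrays, 2 of which were among the 4 lowest in most white-fat genes, enter the diet comparison in sham mice, the surgery comparison on the high-fat diet and the interaction.

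Other genes of adipocytes, taken from a list of 24 of which 23 were measured, had 2 members past the threshold between diets in sham mice and 4 in mice with 1 kidney, counts near the 13.9% and 14.2% of all genes. In sham mice 2 were lower on the high-fat diet, Plin4 (-1.96 in high-fat sham mice against 0.05 in low-fat sham mice, SE 0.52, limma adjusted p = 0.0231) and Car3, a carbonic anhydrase of adipocytes and muscle (-1.64, SE 0.14), with 0 higher and a median of -0.23. In mice with 1 kidney Lpl, the lipase that frees fatty acids from lipoproteins, was lower (-1.64, SE 0.36, limma adjusted p = 0.0090), as was Car3 (-1.73), while Sncg, gamma-synuclein (1.08), and Cebpa, an adipogenic transcription factor (0.99), were higher (median 0.23). In both surgery comparisons 0 of the 23 passed. Of 16 brown-fat genes other than Ucp1, 13 were measured and 0 passed in any comparison, with medians between -0.15 and 0.26. Cidea differed by -0.25 between diets in sham mice and -0.12 in mice with 1 kidney.

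Of 6 adipokine receptors and receptor partners, Adipor2, a receptor of adiponectin, passed in both diet comparisons and was lower on the high-fat diet. A count of 1 in 6 is near the share of all genes, 13.9% in sham mice and 14.2% in mice with 1 kidney. It is therefore no result about the receptors as a set. It averaged 4.14 in high-fat mice with 1 kidney against 4.52 in low-fat mice with 1 kidney (-0.38, SE 0.10, limma adjusted p = 0.0229), and 4.04 in high-fat sham mice against 4.45 in low-fat sham mice (-0.41, SE 0.11, limma adjusted p = 0.0237). The other 5, Adipor1, Cdh13, Lepr, Cap1 and Insr, did not pass in any comparison.

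Markers of cells that also hold Fabp4, or that border the kidney, were read on the same arrays, and their part in the results was not tested. The counts that follow stand beside 14.2% of all genes passing between diets in mice with 1 kidney and 13.9% in sham mice, a share that 1 member of 7 makes up. Of 7 macrophage markers 5 were measured and 0 passed in any comparison. Of 7 endothelial markers 2 passed between diets in mice with 1 kidney, Cdh5 and Tie1, both higher, and 0 in sham mice. The array means of the endothelial list ran from -0.63 to 0.39 in high-fat mice with 1 kidney, against -0.68 to -0.49 in low-fat mice with 1 kidney. Lymphocyte markers were higher on the high-fat diet, with 4 of 8 passing in mice with 1 kidney (Cd3e, Cd79b, Ms4a1 and Cd4) and 2 in sham mice (Cd79b and Cd4). Their array means ran from -3.06 to -2.14 in high-fat mice with 1 kidney, against -3.81 to -3.35 in low-fat mice with 1 kidney. Of 6 liver markers Ttr was higher in both diet comparisons and Ahsg lower in mice with 1 kidney. The liver list's array means ran from -1.34 to -0.88 in high-fat mice with 1 kidney, against -1.11 to 1.81 in low-fat mice with 1 kidney, and from -1.63 to -0.61 in high-fat sham mice, against -0.87 to 1.14 in low-fat sham mice. Of 7 mesothelial and capsule markers 6 were measured, and of these Dcn was lower on the high-fat diet in sham mice. Of 6 adrenal markers measured, Th was higher in both diet comparisons, and in sham mice Cyp21a1 was higher and Mc2r lower. Of 3 skeletal muscle markers measured, Pvalb was higher in both diet comparisons and Acta1 lower in sham mice. Pvalb was at 1.24 to 3.64 and well above background on all 15 arrays. Ckm, Mylpf, Myh4 and Myh1 were not among the genes tested, and Tnnt3 was well above background on 4 arrays. Pvalb is therefore not read here as a sign of muscle. In both surgery comparisons 0 members of any of these lists passed.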

How the data were processed

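RNA of 15 frozen mouse kidneys, 100 ng each, was labelled with Cy3 and hybridised to Agilent design 026655 arrays (per the labels' protocols for the RNA, per the file headers for the design). The intensity values were made by the authors with Feature Extraction 10.7 (per the submitters' processing notes; 10.7.3.1 per the file headers). They are background-subtracted signals with no scaling between arrays. The deposited value table holds the same intensity values rounded, at 0.995 to 1.005 times the scanner signal.

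The processed signal was averaged over spots of a probe without outlier marks (74 to 273 spots left out per array), log2-transformed and centred on the array's own 75th percentile of non-control probes. Probe accessions were matched to RefSeq genes (GRCm38.p6, for names and promoter sequence; the array design names mm9): 27234 of 39429 probes were named. A gene was represented by its probe of highest mean, and 16055 genes were tested, those whose probe exceeded background clearly on 3 arrays or more, with a value missing on some array for 43. Retn, Cidec, Adrb3 and Adig had 2 probes.

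A single linear model with a mean for each group was fitted over the 15 arrays in limma 3.58.1 (R 4.3.3, lmFit and eBayes). Tests were two-sided, and the threshold was an adjusted p of 0.05 (Benjamini-Hochberg over all genes of a comparison). The fit was tested on simulated arrays with known differences. Their noise was independent between arrays, whereas the data had a correlation within slides of 0.41. The simulation therefore does not bear on effects of the slide. The number of arrays limits the precision. The labels number separate mice. The members and gene lists, and the rule that all 10 members, up to 4 passing members of each list and the 10 genes most like Adipoq are named, were chosen with earlier results of these data known. The alternatives were quantile and cyclic loess normalization, normexp background correction (offset 50, run on the deposited median spot and background intensity, as the mean spot signal was not used here), the deposited value table, other filters on dim probes, the mean over a gene's probes, the slide or replicate number as a block, array weights, the variance prior and the arrays in the fit.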

Additional observations from a re-analysis of the deposited data

Results flagged for a closer look

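Within groups of 4 arrays, 5 values lay far from the other 3 by Dixon's gap rule, in 30 groups of 1 gene each, where chance flags about 1 in 20. Low-fat 1-kidney replicate 3 accounts for 4 of them: Adipoq at -3.35, Retn at -3.12, Plin1 at -5.32 and Adrb3 at -5.43, all below the other arrays of the group. The fifth was Retn in high-fat 1-kidney replicate 1, at -2.43. These are single mice, and the genes vary together, so the flags are not independent.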

How the results depend on the processing

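The median difference of the 9 white-fat genes (with the fitted values of Lep) kept its direction and moved by less than the spread between arrays under every alternative in all 5 comparisons, except that in mice with 1 kidney the median between diets (0.15) lay between -0.50 and 0.52 as single arrays were left out. No called gene changed direction. Between diets in sham mice, where 2 of the 10 genes and 2230 of all genes passed, the counts were 0 and 202 with normexp, 4 and 4475 with slide as a fixed block, 0 and 14 with slide as a random block, and 0 and 1181 when only the arrays compared were fitted. The fixed block told slide 1 from slide 2 among the high-fat arrays only. It could not adjust a diet difference for slide, since no slide held both diets. Without single arrays they ran from 0 to 7 and from 1210 to 2719. With no filter on dim probes 4850 genes passed. Between diets in mice with 1 kidney, where 1 of the 10 and 2278 of all genes passed, the counts were 0 and 327 with normexp, 0 and 26 with the random block, and 0 of the 10 when only the arrays compared were fitted. Without single arrays they ran from 0 to 1 and from 1313 to 3307. There 3598 genes passed with no filter, 4099 with the fixed block and 5761 with array weights. Between operations on the low-fat diet 1 gene passed, and 2 did with quantile normalization, 101 with array weights, 0 with normexp, the random block, the robust variance prior or only the arrays compared, and 0 to 1 without single arrays. On the high-fat diet 0 passed, and 1 did with cyclic loess, with 0 to 1 without single arrays. In the interaction 0 to 1 passed without single arrays. The cause of these shifts was not tested.

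The replicate numbers did not pair the arrays: 5 of 21 same-numbered pairs had deviations from the group mean that correlated above 0.1 (range -0.15 to 0.43), and 3 of 15 arrays correlated best with their own number. With the replicate number as a block, 1 of the 10 genes passed between diets in sham mice (Adig), and 0 of all genes between operations on the low-fat diet. Cfd lost its call in sham mice with normexp (adjusted p = 0.114) and without any of 5 single arrays, and Adig when both its probes were averaged (-0.42, adjusted p = 0.387). Signal over background limits Lep and Ucp1. Lep was dim on 8 of 15 arrays, and on high-fat 1-kidney replicate 1 it cleared background only in a spot left out of the level. Ucp1 was dim on 3.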
